A study of Canis lupus familiaris with 33 samples.

Results

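The Notch genes described here came from a list of 8: the receptors NOTCH1, NOTCH2 and NOTCH3, the ligands JAG1, JAG2 and DLL1, the target gene HEYL and the glycosyltransferase LFNG. Rows of the expression table were taken by gene symbol, which gave 6 of the 8 among 25096 genes. LFNG carried no symbol in the table and was found through its Entrez gene ID in the RefSeq gene table, so 7 genes were analysed. HEYL was not analysed here. RNA was sequenced from 29 canine invasive urothelial carcinomas (iUC) and from 4 samples of normal bladder mucosa, the whole series of 33 samples being run as a single batch. The tumors came from different treatment-naive dogs, were taken by cystoscopic biopsy in all or most cases and were all high grade, and the labels give no subtype, breed or age. The normal samples, labelled as normal urothelial cells, were mucosa dissected from the bladders of dogs put to sleep for reasons unrelated to the bladder. The 2 groups therefore differ in how the tissue was taken as well as in disease, and these cannot be told apart.

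Notch signaling passes between touching cells. A ligand of the Jagged or Delta-like family on a cell binds a Notch receptor on its neighbor, the receptor is then cut by an ADAM protease and by gamma-secretase, and its freed intracellular domain enters the nucleus, joins RBPJ and Mastermind proteins, and switches on genes of the HES and HEY families. Fringe enzymes such as LFNG add sugars to the receptor and change which ligands it answers to. In epithelia Notch is known for its part in cell fate and differentiation; in blood vessels NOTCH4 is a receptor of endothelial cells and NOTCH3 a receptor of the pericytes and smooth muscle cells (mural cells) around them. Inactivating changes in Notch genes are known in human bladder cancer.

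Values are log2 normalized expression minus the median of that gene over the 33 samples, so 0 is the middle sample and a step of 1 is a 2-fold step. They show how samples differ in a gene, not how abundant the gene is, and no level was compared between genes. TMM and DESeq are 2 ways of scaling libraries to each other, and each has its own table here. The TMM-normalized table was used throughout, and the DESeq-normalized table as an alternative. None of the 7 genes reached, in any sample, a lowest value shared between samples, which in this table marks little or no expression. The total count of a sample is unknown, so no counting error can be given.

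Marker genes showed what tissue the samples held. All 10 measured genes of 15 on the epithelial list were higher in tumors, by a median log2 difference of 1.89, and the mean of the list lay between -2.61 and -1.43 in the normals and between -0.39 and 0.72 in the tumors. All 6 measured smooth muscle genes were lower in tumors, with list means of 5.31 to 7.36 in the normals and -1.06 to 4.03 in the tumors. Of 5 measured mural genes, 1 (MCAM) was lower and 4 did not pass, with list means of 0.82 to 1.62 in the normals and -1.72 to 1.80 in the tumors. Of 6 measured fibroblast genes 5 were lower and 1 was higher (median difference -2.84), and both measured Schwann cell genes were lower (-5.43). Of 12 measured endothelial genes, 1 (MMRN2) was higher and 11 did not pass, and both groups spanned 0, from -0.39 to 0.18 in the normals and from -1.49 to 1.83 in the tumors. Olfactory receptor genes, which bladder tissue is not known to use, lay above the shared lowest value in 99.7% to 100% of cases in the normals and in 4.37% to 91.3% in the tumors. In these bulk samples, fewer cells of a type and less RNA per cell cannot be told apart.

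Among the receptors, no difference between iUC and normal mucosa passed the test. NOTCH1, which acts in epithelial differentiation, read -0.16, 0.04, 0.33 and -0.22 in normals A to D, and from -0.90 through a median of 0.00 to 1.21 in the tumors. The tumors lay on either side of the normals, 10 above all of them, 9 below and 10 between, and the difference (tumor minus normal, log2, limma) was 0.05 ± 0.29 (SE; 4 normals, 29 tumors), adjusted p = 0.889. NOTCH2 read -0.32, 0.43, -0.10 and 0.27 in the normals and from -1.04 through 0.00 to 0.51 in the tumors. Of the tumors, 18 fell within the range of the normals, and the difference was -0.18 ± 0.21, adjusted p = 0.467. NOTCH3 read -0.27, -0.10, 0.00 and -0.56 in the normals and from -1.54 through 0.23 to 1.75 in the tumors. Of these tumors 16 lay above all normals and 6 below, and the difference was 0.30 ± 0.37, adjusted p = 0.469. In the DESeq-normalized table the differences were -0.25 for NOTCH1 (adjusted p = 0.443), -0.47 for NOTCH2 (adjusted p = 0.0481, short of 2-fold) and 0.01 for NOTCH3 (adjusted p = 0.989). With a normal left out, that of NOTCH2 ran from -0.31 without normal A to -0.05 without normal B. The 95% interval in the TMM-normalized table ran from -0.53 to 0.63 for NOTCH1 and from -0.61 to 0.26 for NOTCH2, both short of a 2-fold change either way, and from -0.45 to 1.06 for NOTCH3, which reached past 2-fold on the upper side.

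JAG1, a Jagged ligand, was the ligand that rose. It read -1.13, -0.86, -1.19 and -1.12 in the normals, a narrow band, and from -1.67 through 0.19 to 1.61 in the tumors. Of the 29 tumors, 25 lay above every normal, 2 lay within the band and 2 below it. The difference was 1.22 ± 0.43, a 2.33-fold higher level in iUC (limma, adjusted p = 0.0127; exact two-sided permutation of the 4 normals among 33 samples, p = 0.00819). The 95% interval of the difference ran from 0.34 to 2.10. In the DESeq-normalized table the difference was 0.92 ± 0.43 with adjusted p = 0.0583, short of both thresholds. Over all alternatives p, adjusted or exact, ran from 0.00819 to 0.0583.

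JAG2, the other Jagged ligand, read 0.63, 1.33, 0.48 and 0.90 in the normals and from -2.89 through -0.07 to 2.91 in the tumors. The tumors spread more widely than in the other 6 of the 7 genes, with 20 below all normals and 4 above, and the difference of -0.71 ± 0.55 did not pass (adjusted p = 0.247). DLL1, a Delta-like ligand, read 0.88, 0.36, 0.70 and 1.29 in the normals and from -1.62 through -0.03 to 1.19 in the tumors. No tumor lay above the highest normal, 22 lay below the lowest and 7 lay between. The difference was -0.97 ± 0.35 (limma, adjusted p = 0.0150; exact permutation, p = 0.0103), past the p threshold but short of the 2-fold threshold, with a 95% interval from -1.68 to -0.25. It passed both in the DESeq-normalized table, at -1.27 and adjusted p = 0.00200, and without normal B (adjusted p = 0.0154) or normal C (adjusted p = 0.0294). Over all alternatives p ran from 0.00200 to 0.0792, the highest without normal D. The mural, smooth muscle, fibroblast and Schwann cell lists also had negative median differences (-0.69, -6.21, -2.84 and -5.43), with 1 of 5, 6 of 6, 5 of 6 and 2 of 2 genes called lower, and their part in the DLL1 difference was not tested.

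LFNG, the fringe enzyme, also rose. It read -0.80, -1.24, -1.46 and -0.58 in the normals and from -1.58 through 0.14 to 2.23 in the tumors. Of the tumors 20 lay above all normals, 8 lay among them and 1 lay below, and the difference was 1.17 ± 0.50, a 2.26-fold higher level (limma, adjusted p = 0.0345; exact permutation, p = 0.0270). The call was lost, at differences from 1.03 to 1.25, without normal A (adjusted p = 0.0550), normal B (0.0876) or normal C (0.109), and held without normal D (log2 difference 1.32, adjusted p = 0.0423). It was 0.116 in the DESeq-normalized table, where the difference was 0.88, and 0.0523 with a variance weight per group. Over all alternatives p ran from 0.0270 to 0.116. The epithelial, immune, basal urothelial and umbrella cell lists also had positive median differences (1.89, 0.57, 0.66 and 0.60), with 10 of 10, 2 of 7, 0 of 3 and 2 of 4 genes called higher, and their part in the JAG1 and LFNG differences was not tested.

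**Figure D1:**
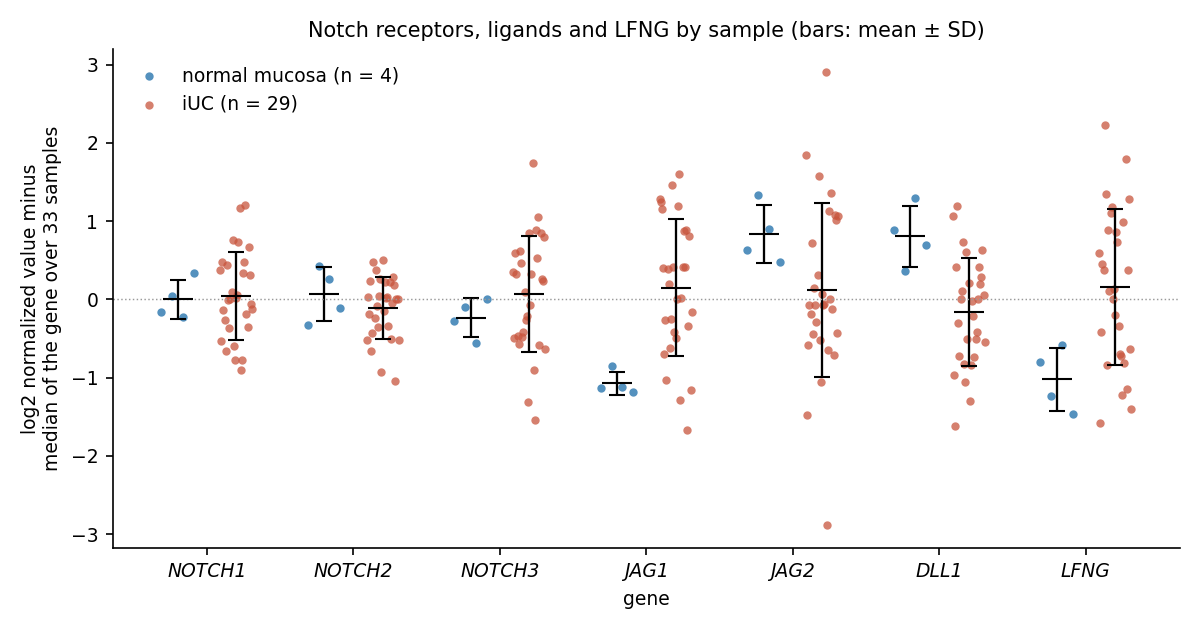
Log2 normalized value minus the median of the gene (vertical axis) for the 7 genes (horizontal axis), each point a sample, blue for the 4 normals and red for the 29 tumors, with bars for mean ± SD. JAG1 and LFNG lie higher in most tumors (25 and 20 of 29 above all normals), 22 tumors lie below all normals in DLL1, and the receptors overlap.

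Of the 7 genes, then, 2 were called higher (adjusted p no more than 0.05, change no less than 2-fold), against 10.7% of the 24471 genes tested, and 0 were called lower, against 45.8%. By adjusted p alone, 2 were higher and 1 (DLL1) lower, where 22.9% and 48.1% of all genes were. At an unadjusted p of at most 0.05 in limma, 3 of the 7 differed, 1 of them lower. Both shares called lower include many genes that stood at their lowest value in most tumors, and the median difference was -0.84 over all genes tested but -0.01 over the 18418 of them whose median lay above that lowest value. The median of the 7 genes was 0.05. The DESeq-normalized table moved the median of those genes to -0.29. Measured from that median, the differences were nearly the same in both tables, at 1.23 and 1.22 for JAG1, 1.18 and 1.17 for LFNG, and -0.96 and -0.97 for DLL1. Both tables scale the same libraries, and the scaling moved the 7 genes by nearly the same amount. This closeness is therefore no separate support for a call.

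The other genes of the pathway came from a list of 51, of which 38 were measured. Of the 38, 4 were called higher in iUC and 4 lower, with a median difference of 0.42, and by adjusted p alone 17 were higher and 5 lower. Against the 10.7% and 45.8% of all genes called higher and lower, the share called higher was near the background and the share called lower was below it, and by adjusted p alone the backgrounds were 22.9% and 48.1%. The remaining receptor, NOTCH4, did not pass: it read 0.65, -0.18, 0.24 and 0.73 in the normals and from -3.26 through -0.12 to 2.25 in the tumors, a difference of -0.57 ± 0.60 with adjusted p = 0.401.

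Of 6 measured proteases of receptor processing, 3 were called higher and 0 lower, against 10.7% and 45.8% of all genes. FURIN, the convertase that cuts the receptor on its way to the membrane, differed by 1.46 ± 0.28 (adjusted p = 2.87e-05), ADAM17, which can shed its outer part, by 1.24 ± 0.19 (adjusted p = 6.32e-07), and APH1A, a gamma-secretase subunit, by 1.18 ± 0.19 (adjusted p = 1.93e-06). All 29 tumors lay above all 4 normals in each of these 3 genes. RFNG, a fringe enzyme like LFNG, was higher by 1.04 ± 0.18 (adjusted p = 3.62e-06), again with all 29 tumors above the normals. In the DESeq-normalized table FURIN alone of these 4 kept a 2-fold difference, at 1.16, while ADAM17 stood at 0.94, APH1A at 0.88 and RFNG at 0.74. RFNG was also short of 2-fold without normal D, at 0.94. MFNG, the other fringe enzyme, did not pass, at -0.62 ± 0.43 with adjusted p = 0.198. Of 10 measured genes of the nuclear complex, 4 were higher and 0 lower by adjusted p alone, each by less than 2-fold. Of 9 measured genes of endocytosis and turnover, 5 were higher and 1 lower by adjusted p alone. The shares of all genes by adjusted p alone were 22.9% higher and 48.1% lower.

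Of 6 measured targets, 0 were called higher and 1 lower, against 10.7% and 45.8% of all genes. NRARP, a target that feeds back on the pathway, differed the other way, by 0.91 ± 0.34 (adjusted p = 0.0194), past the p threshold but short of 2-fold, with 18 tumors above all normals and 0 below. HES7, known as an oscillating Notch target of the embryo, read 2.51, 1.68, 2.04 and 3.28 in the normals and from -1.91 through -0.60 to 1.97 in the tumors, with 28 of 29 below all normals and 7 at the lowest value, a difference of -2.94 ± 0.52 (adjusted p = 8.51e-06). HES2 was lower by adjusted p alone (-0.90, adjusted p = 0.0426), short of 2-fold. It stood at its lowest value in 16 of 29 tumors, so it has no bounded fold, and normal B read 0.00. HES4 (0.21), HES5 (0.21) and HES6 (0.72) were not called. Of these 3, HES5 stood at its lowest value in 24 of 29 tumors and all normals, and HES6 in 6 tumors. NUMBL, a relative of the Notch inhibitor NUMB, was lower by 1.77 ± 0.34 on the log2 scale, with all 29 tumors below all normals (adjusted p = 2.80e-05). NUMB itself differed the other way, by 0.51 ± 0.15 (limma, adjusted p = 0.00315), short of 2-fold, with 27 tumors above all normals. The part of the mural, smooth muscle, fibroblast and Schwann cell lists given beside DLL1 was not tested for NUMBL either. Among the other ligands DLL3 and DLK1, a non-canonical ligand, are counted as lower, but both entered the test only through the normals, being above the lowest value in fewer than 4 tumors, so their call is no support for a difference. DLL3 read 3.01, 3.69, 2.73 and 3.66 in the normals while 27 tumors stood at the lowest value, and DLK1 read 4.29, 4.08, 4.17 and 4.79 while 26 did, so neither has a bounded fold. Of 376 olfactory receptor genes, 372 were also called lower, with a median difference of -5.36. What they share with the DLL3, DLK1, HES7 and HES2 values was not tested. DLK2 did not pass (-0.40, adjusted p = 0.232).

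**Figure D2:**
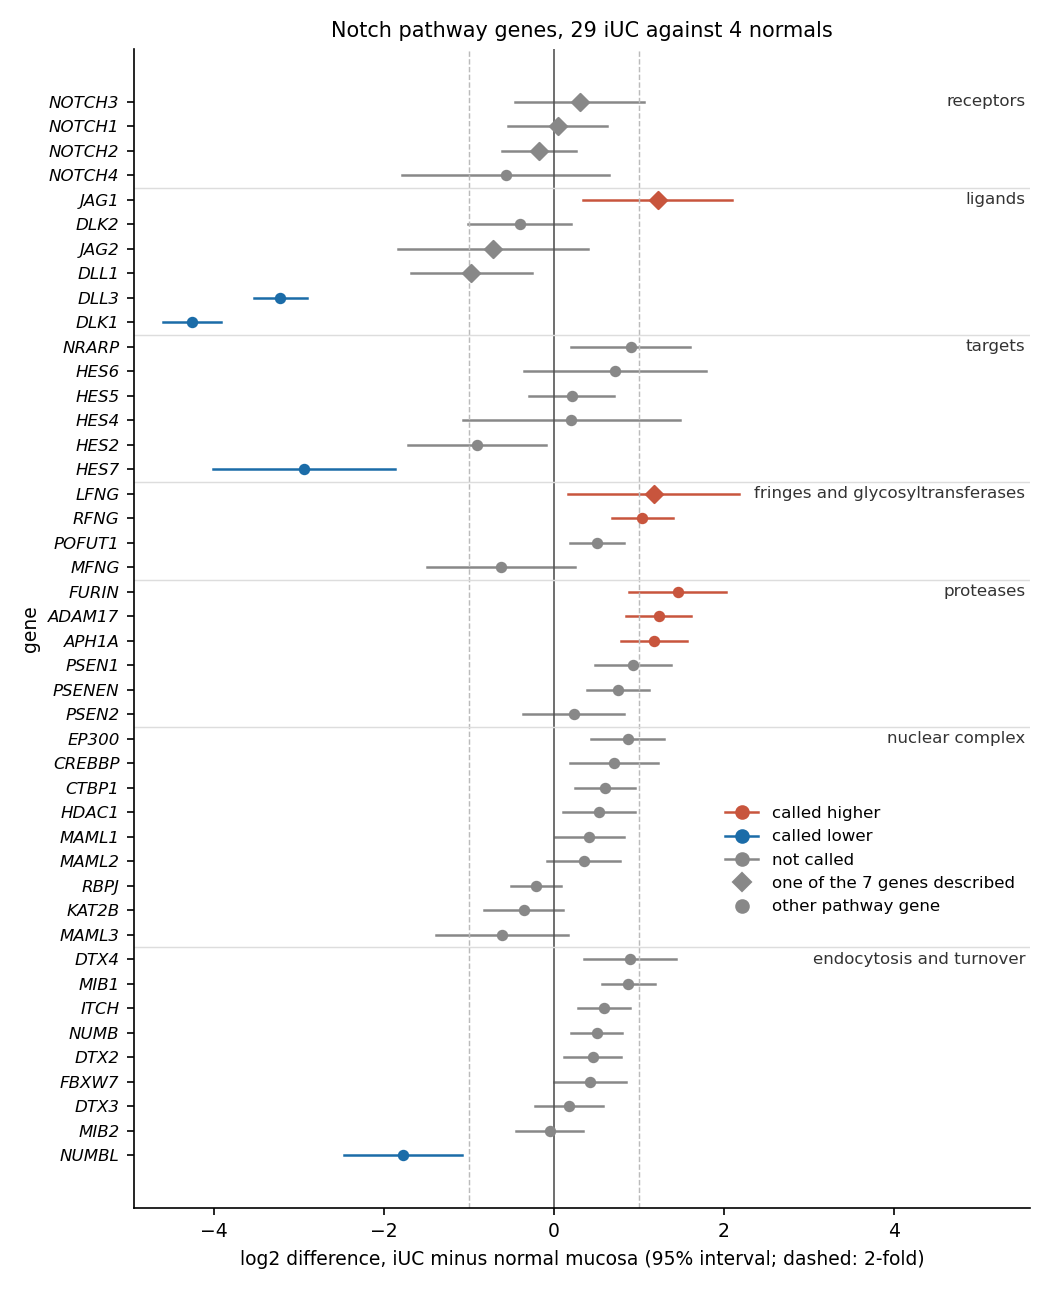
Log2 difference between 29 iUC and 4 normals (horizontal axis, point and 95% interval from limma) for the 7 genes (diamonds) and 37 other pathway genes (circles), grouped by role, red if called higher, blue if called lower, gray if not called. JAG1 and LFNG stand with FURIN, ADAM17, APH1A and RFNG on the right, and DLK1, DLL3, HES7 and NUMBL on the left.

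The tumors differed among themselves more in some members of the pathway than in others. The SD over the 29 tumors was 1.11 for JAG2, larger than in 80.5% of the genes tested, and 1.00 for LFNG, 0.88 for JAG1, 0.75 for NOTCH3, 0.70 for DLL1, 0.56 for NOTCH1 and 0.40 for NOTCH2, the last larger than in only 23.9% of genes. A few tumors stood at the ends of several genes. Tumors are numbered here in accession order, which differs from the numbers in some sample titles. Tumor 4 was the highest of all in NOTCH3 (1.75), JAG1 (1.61) and JAG2 (2.91) and the second highest in NOTCH1 (1.17). Tumor 26 was the lowest in NOTCH1 (-0.90) and JAG2 (-2.89), the second lowest in JAG1 (-1.29) and the third lowest in NOTCH3 (-0.91). LFNG and DLL1 had other tumors at their ends, LFNG highest in tumor 8 (2.23) and DLL1 highest in tumor 10 (1.19) and lowest in tumor 1 (-1.62).

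Whether the Notch genes moved with epithelial or with vascular markers over the tumors was asked with marker scores. The paper gives a very high epithelial cellularity for all tumors, and how far the scores reflect cell content was not tested. Each score is the mean over its list of the values scaled to SD 1 over the 29 tumors, and Pearson's r of every gene with the score was tested with 100000 permutations of the tumors and Benjamini-Hochberg adjustment over 24089 genes. The epithelial score is a loose one: of its 10 genes only CDH1 correlated with the rest of the list past the threshold, the correlations running from 0.04 to 0.67, so it says little about single genes. The endothelial score was tight, with 9 of 12 genes past the threshold and a median correlation of 0.85, while TIE1 (0.36), ESAM (0.38) and MMRN2 (-0.22) fell short. The mural score rested on 5 genes, 3 of them past the threshold, and NDUFA4L2 among them stood at its lowest value in 8 tumors. Endothelial and mural scores went together (r = 0.78, rho = 0.73, permutation p = 1e-05, the smallest these permutations can give, and 4e-05).

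With the epithelial score, 0 of the 7 Notch genes passed, as against 0.27% of all genes on the positive and 0.374% on the negative side, and limma with the score as covariate also called 0. The correlations ran from -0.42 to 0.09 with a median of -0.09 (-0.05 over all genes), and 1 of 7 had an unadjusted p of at most 0.05. This was NOTCH2 (r = -0.42, rho = -0.40, permutation p = 0.0241 and 0.0314, adjusted p = 0.207; r = -0.40 with the 2 most extreme tumors of the score left out). Over all alternatives its correlation ran from -0.46 to -0.18, with adjusted p from 0.166 to 0.913. NOTCH1 (0.08), NOTCH3 (-0.00), JAG2 (0.09), DLL1 (-0.12) and LFNG (-0.09) lay near 0, and JAG1 at -0.23. A correlation had to reach 0.60 to be called here.

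With the endothelial score, again 0 of the 7 passed, where 2.16% of all genes were called on the positive and 0.282% on the negative side. Limma called 0, and 2 had an unadjusted p of at most 0.05. Of the 7, 6 had a positive r, and the median was 0.26 against -0.01 over all genes. DLL1 had the highest (r = 0.45, rho = 0.47, permutation p = 0.0147 and 0.0119, adjusted p = 0.202), then JAG2 (r = 0.41, rho = 0.40, permutation p = 0.0280 and 0.0321, adjusted p = 0.282). With the 2 most extreme tumors of the score left out, the 2 values of r were 0.35 and 0.36, and with the first principal component of the tumors regressed out that of DLL1 was 0.20 (adjusted p = 0.712). The correlation of JAG2 ran from 0.36 to 0.54 over all alternatives, with adjusted p from 0.101 to 0.480. NOTCH3 (0.29), NOTCH2 (0.26), NOTCH1 (0.20) and JAG1 (0.17) were lower and LFNG was at -0.10. The smallest correlation called was 0.54. NOTCH4, the endothelial receptor of the pathway list, had r = 0.92 and rho = 0.92 (permutation p = 1e-05 for each, adjusted p = 0.00153; r = 0.90 with those tumors left out).

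With the mural score, DLL1 passed and the other 6 did not, where 1.95% of all genes were called on the positive and 0.324% on the negative side. For DLL1 r was 0.61 and rho 0.64 (permutation p = 0.000530 and 0.000290, adjusted p = 0.0308; limma adjusted p = 0.0257), higher than in 98.5% of all genes. The call was lost without tumors 20 and 21, the highest in the score (r = 0.56, adjusted p = 0.0916), with the fibroblast score regressed out (r = 0.51, adjusted p = 0.135) and with the first principal component of the tumors regressed out (r = 0.45, adjusted p = 0.244). Over all alternatives adjusted p ran from 0.00875 to 0.244. DLL1 itself had r = 0.40 with the fibroblast score (adjusted p = 0.370) and 0.31 with the immune score (adjusted p = 0.462). NOTCH3, a receptor known from mural cells, had r = 0.34 and rho = 0.26 with the mural score (permutation p = 0.0690 and 0.173, adjusted p = 0.346). The remaining 5 lay between 0.06 and 0.31. Of the pathway list 3 of 38 were called, NOTCH4 (0.78), DLK2 (0.62) and NUMBL (0.60). Without the 2 farthest tumors NOTCH4 kept its call (adjusted p = 0.0128), while DLK2 (r = 0.55, adjusted p = 0.0973) and NUMBL (r = 0.56, adjusted p = 0.0956) lost theirs.

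The difference between the epithelial and endothelial scores tests directly whether a gene goes with one rather than the other. None of the 7 passed, in the permutation test or in limma, while 1.25% of all genes were called on the epithelial side and 3.91% on the endothelial side, and 1 of the 7 had an unadjusted p of at most 0.05. NOTCH2 was farthest toward the endothelial side (r = -0.41, rho = -0.44, permutation p = 0.0261 and 0.0183, adjusted p = 0.188; r = -0.51 without the 2 farthest tumors, and -0.09 with the first principal component regressed out, adjusted p = 0.933), followed by DLL1 (-0.35), JAG1 (-0.24), JAG2 (-0.19), NOTCH3 (-0.18), NOTCH1 (-0.08) and LFNG (0.01). NOTCH4 stood at -0.78 (adjusted p = 0.00142), and of the pathway list MFNG (-0.57) and NUMBL (-0.58) were also called. Without the 2 farthest tumors r was -0.56 for MFNG and -0.48 for NUMBL, and neither was called (adjusted p = 0.0642 and 0.165). MFNG had a higher r with the immune score (0.79, adjusted p = 0.00108) than with the endothelial score (0.57, adjusted p = 0.0547), and NOTCH2 likewise had 0.43 (adjusted p = 0.212) and 0.26, though the differences between these scores were not tested. For none of the 7 was a difference between the scores detectable with 29 tumors and these lists.

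**Figure D3:**
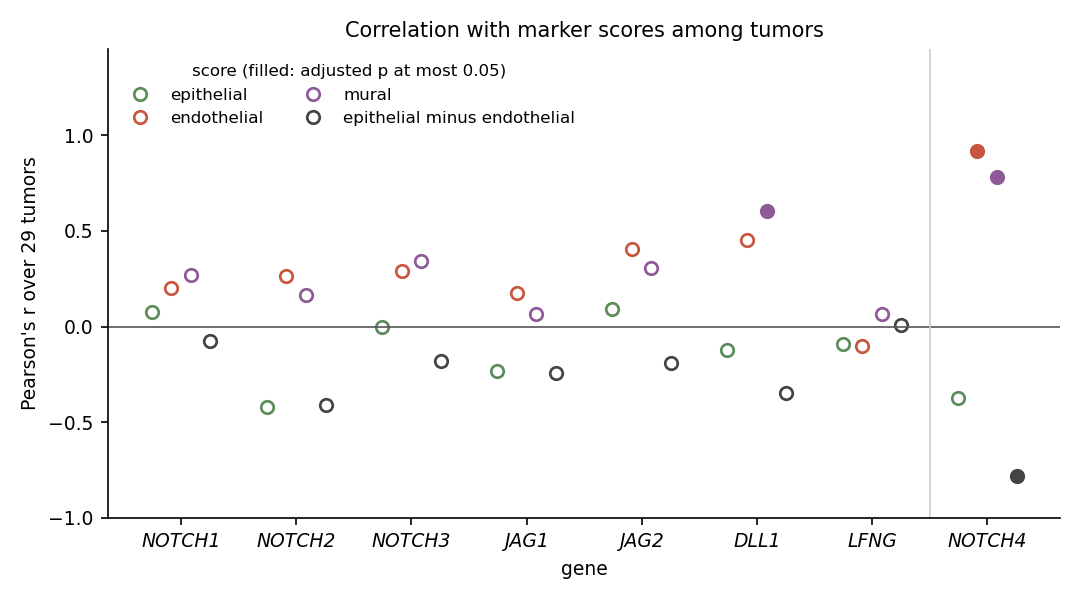
Pearson's r over 29 tumors (vertical axis) of each gene (horizontal axis) with the epithelial (green), endothelial (red) and mural (purple) scores and with the epithelial minus endothelial score (black); filled points have an adjusted p of at most 0.05. Among the 7 genes only DLL1 with the mural score (0.61) is filled, while NOTCH4, to the right of the line, is filled for 3 of 4 scores.

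Other scores gave no call among the 7 genes by permutation or by limma. With basal urothelial markers the correlations ran from -0.19 to 0.38, with umbrella cell markers from -0.36 to 0.18, with immune markers from -0.33 to 0.43, with smooth muscle markers from -0.19 to 0.37, and with the fibroblast list from -0.16 to 0.40. An unadjusted p of at most 0.05 was reached by 1, 0, 1, 1 and 2 of the 7 in that order. With the first principal component of the tumors, which held 12.9% of the variance, they ran from -0.06 to 0.45 and 2 reached that p.

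The Notch genes were then set against each other over the tumors. Each r was read from the test of a gene against all others, with the larger of the 2 adjusted p values of a pair, over 21 pairs. NOTCH1 and NOTCH3 passed (r = 0.74, rho = 0.68, permutation p = 3e-05 and 8e-05, adjusted p = 0.00951; limma adjusted p = 0.00414). Leaving out the 2 tumors farthest from the median in NOTCH1 (4 and 9) gave r = 0.65 with adjusted p = 0.0919, and leaving out those farthest in NOTCH3 (6 and 14) gave 0.68. The correlation was positive in each alternative, with adjusted p from 0.00414 to 0.0919.

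NOTCH1 and JAG2 followed closely, with r = 0.71 and rho = 0.67 (permutation p = 3e-05 and 0.000150). Their adjusted p was 0.0117 on the side of NOTCH1 and 0.0516 on the side of JAG2, so the pair was not called, while limma gave 0.0302. Over the alternatives the larger adjusted p ran from 0.0301 to 0.417, the highest without tumors 4 and 26, where r was 0.59. Next came NOTCH3 with JAG2 (r = 0.50, adjusted p = 0.321), JAG1 with JAG2 (0.49, adjusted p = 0.321) and NOTCH1 with JAG1 (0.48, adjusted p = 0.299). The other 16 pairs ran from -0.19 to 0.33 with a median of 0.07, and 0 of these reached an unadjusted p of at most 0.05. This covers every pair that holds NOTCH2, DLL1 or LFNG. The receptor NOTCH2 and its relative NOTCH1 had r = 0.06.

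**Figure D4:**
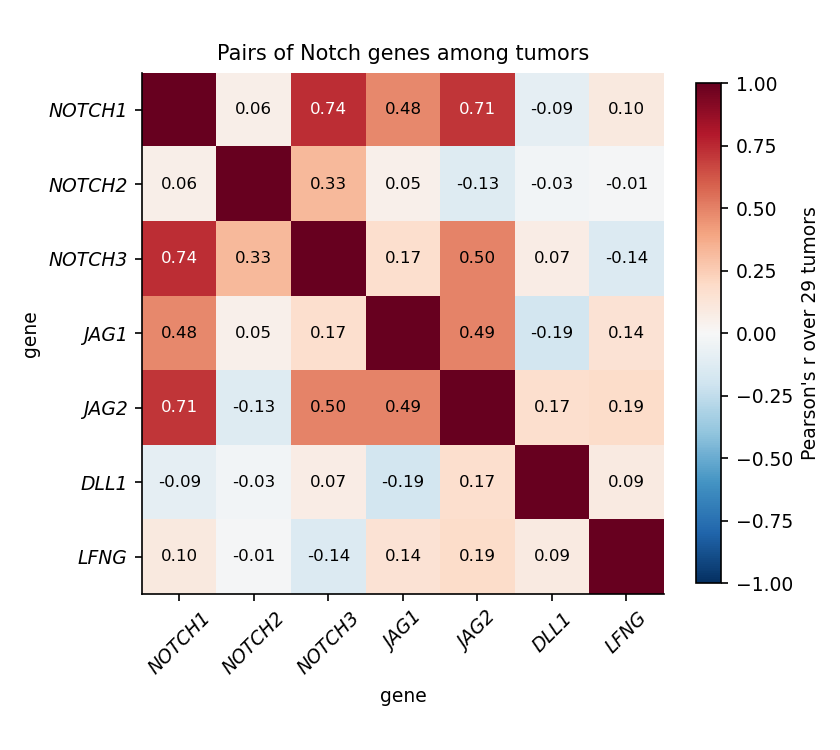
Pearson's r over 29 tumors for each pair of the 7 genes, on a scale from -1 (blue) to 1 (red). NOTCH1, NOTCH3, JAG1 and JAG2 hold the high values, up to 0.74 for NOTCH1 with NOTCH3, and the rows of NOTCH2, DLL1 and LFNG stay between -0.19 and 0.33.

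**Figure D5:**
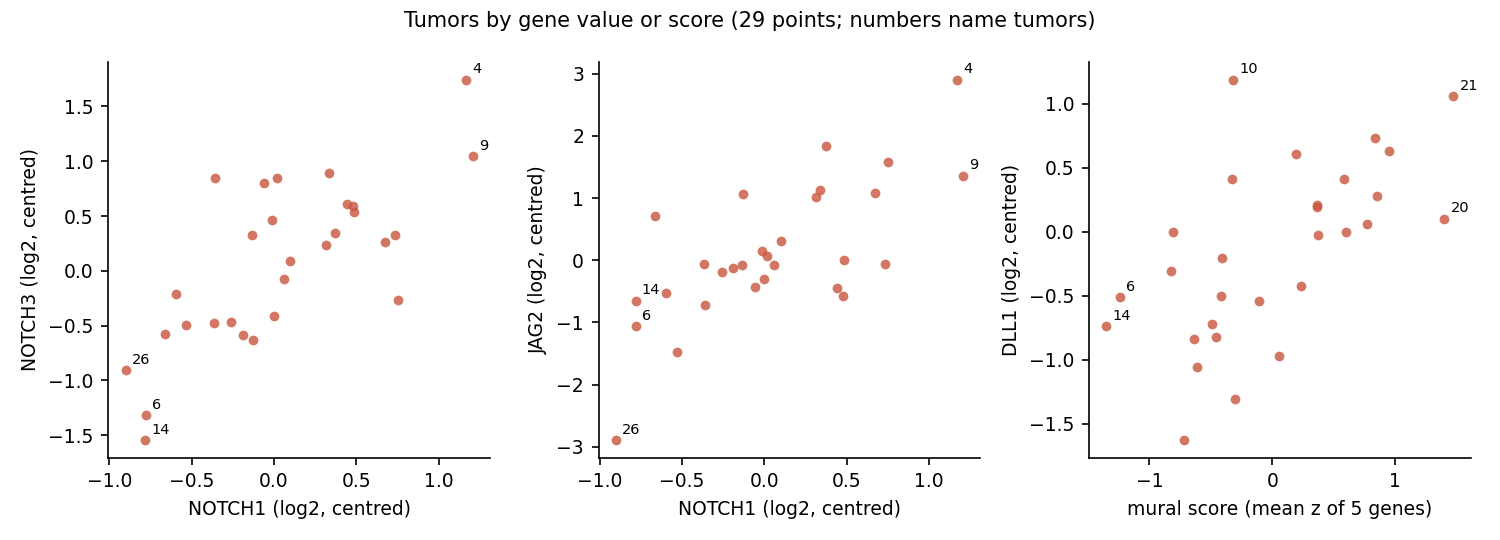
Each point is a tumor: NOTCH3 against NOTCH1 (left), JAG2 against NOTCH1 (middle) and DLL1 against the mural score (right), genes in centred log2 values, with some tumors at the ends numbered. Tumors 4 and 9 are high and tumors 6, 14 and 26 low in NOTCH1 with NOTCH3 and JAG2, and tumors 20 and 21 have the highest mural scores.

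The genes most like each Notch gene over the 29 tumors differed in how close they came. NOTCH1 was called with 229 of 24088 genes (0.951%), with BCL9L (r = 0.79) and ZCCHC14 (0.78) among its 3 nearest. NOTCH3 was called with 1.42% of genes, nearest to TNRC18 (0.86), WIZ (0.82) and CREBBP (0.82), a coactivator on the pathway list. These 5 genes have rho of 0.75 or more, an adjusted p of at most 0.00892 and r of 0.74 or more without the 2 tumors farthest from the median. Genes called with NOTCH1 and NOTCH3 overlapped: 120 were shared, 52.6% of those of NOTCH1 and 35.2% of those of NOTCH3, in the same tumors, over which NOTCH1 and NOTCH3 themselves had r = 0.74. The numbers called depended on the setting, from 19 without the 2 farthest tumors to 422 with the first principal component regressed out for NOTCH1, and from 81 without such tumors to 488 with the olfactory receptor share regressed out for NOTCH3.

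JAG2 was called with 0.0166% of genes, 4 in all, and was nearest to ITPRIPL2 (r = 0.85, adjusted p = 0.0482), SYT17 (0.81, adjusted p = 0.0516) and ARHGEF40 (0.72, adjusted p = 0.0516). Over the alternatives the number called with JAG2 ran from 0 without the 2 farthest tumors to 25 with the olfactory receptor share regressed out. JAG1 was called with 0.0374%, 9 genes (from 4 without the 2 farthest tumors to 33 with the principal component regressed out), and was nearest to QSER1 (0.71, adjusted p = 0.0602), MSANTD2 (0.68) and SYT17 (0.66), so SYT17 stood among the 3 nearest of both Jagged ligands. For DLL1 the permutation test called 0.0% of genes (0, with 1618 at an unadjusted p of at most 0.05). Its nearest gene was nevertheless close: CD8B, a subunit of the CD8 co-receptor of T cells, had r = 0.83 and rho = 0.85 (permutation p = 1e-05 for each, the smallest these permutations can give, adjusted p = 0.120; r = 0.80 without the 2 farthest tumors), ahead of ADRA2B (0.72) and KIF5C (0.70). Limma called 1 gene with DLL1, CD8B (adjusted p = 0.000445). NOTCH2 was also called with 0.0% (0, with 2548 at that unadjusted p, and 0 by limma), with RYBP (0.71), NAA16 (0.68) and MAN2B1 (0.66) nearest. LFNG was called with 0.0% (0, with 748, and 0 by limma) and came close to no gene, CDH3 (0.56), SUN1 (0.55) and CYB5R3 (0.55) being nearest.

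Among tumors, the olfactory receptor share given above correlated with the 7 genes from -0.14 to 0.08 (Pearson's r), and the number of genes at the lowest value from -0.13 to 0.14. By Spearman's rho these ran from -0.20 to 0.15 and from -0.20 to 0.12. The first principal component had a higher r with DLL1 (0.45) and NOTCH2 (0.42), neither of them called. With the olfactory receptor share regressed out, r was 0.74 for NOTCH1 with NOTCH3 and 0.73 for NOTCH1 with JAG2.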

How the data were processed

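Paired-end reads from 4 normals and 29 tumors were aligned by the authors to the CanFam3.1 canine genome with COBWeb in Strand NGS after removal of ribosomal RNA. Annotated genes were quantified and scaled with 2 methods, TMM and DESeq, by the authors, whose deposited tables hold log2 values centred on each gene's median. These are not counts, depth is unknown, and precision cannot be given per value. Columns were matched to samples by name, and no column of another sample was used. Neither strandedness nor treatment of near-identical genes is given in the sources used here, so reads shared by NOTCH paralogs could not be traced.

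Members and lists were chosen with earlier results of these data known. Names came from the table, or from RefSeq by Entrez ID. Genes above their shared lowest value in at least 4 samples were tested (24471) in the TMM table with limma 3.58.1 (R 4.3.3, eBayes with trend, Benjamini-Hochberg). Calls needed adjusted p no higher than 0.05 and a change of 2-fold or more. Correlations over tumors used Pearson's r and Spearman's rho, with permutations made in Python 3.11.15 (numpy 2.4.6). The tests were tried on simulated data. Letters of normals are those of the titles. Tumors were numbered in accession order, not by title, and the numbers name samples only. In limma of iUC versus normal mucosa, p-values rest on the spread between samples, each tumor being from a different dog. Whether each normal came from its own dog is not stated. The p-values of correlations concern association over the tumors.

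All members were named. From the pathway list, genes were named if called (up to 4 per direction) or if receptors, ligands or HES targets, and for each member the 3 genes with a symbol and the highest r over tumors, above the lowest value in at least 15 tumors. The other pathway genes were given in counts. NRARP, MFNG, NUMB and the pathway genes called with a score were named after their values were seen. Alternatives were the DESeq-scaled table of the authors, other filters and variance models, each normal left out, Spearman's rho, median scores, left-out tumors, and sample measures regressed out. The limma fits with a score or gene as covariate, the principal component and the added scores were chosen after seeing the data. One gene of the pathway list is not reported here by name, though it stays in the counts. No sequence was analysed, and pathway genes outside the 38 measured were not analysed here.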

Additional observations from a re-analysis of the deposited data

Results flagged for a closer look

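APH1A in normal D was flagged because this value, -1.67, stood apart from the other 3 normals: its gap to the nearest of them was 0.864 of the whole range of the 4, past the critical value of Dixon's test for 4 samples. Chance flags about 5% of groups, and 1 of the 18 groups of normals examined was flagged. Without normal D the difference of APH1A between iUC and normals was 1.01.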

How the results depend on the processing

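Of 452 alternative values for single genes and pairs, 406 kept their direction and their side of the threshold, 14 lost the call, 8 gained it and 24 changed sign. The cause was not tested except where stated. The DESeq-normalized table called 1377 genes higher, 0 of the 7 genes higher, 1 lower (DLL1) and 1 pathway gene higher, and it moved the middle of all genes down. With no fold threshold 5603 genes, 17 pathway genes and 2 members were called higher. In that setting 11781 genes, 5 pathway genes and 1 member were called lower. Genes with a median above the lowest value, a smaller set, gave 5543 genes lower and 2 pathway genes lower. A variance weight per group left 1 member higher. Leaving out each normal gave 1 to 2 members higher and 0 to 1 lower.

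NOTCH1, whose difference was near 0, changed sign to -0.25 in the DESeq-normalized table, and ranged from -0.026 to 0.16 with a normal left out. The mural call of DLL1 went to 0 members without the 2 farthest tumors, with the fibroblast score and with the first principal component regressed out. Called pairs rose to 2 in the DESeq-normalized table, by limma, and with the olfactory receptor share or the principal component regressed out, and fell to 0 without the 2 farthest tumors.

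The other sign changes were of correlations not called in either setting. With the epithelial score these were, for median z, 0.019 (NOTCH3) and 0.0037 (LFNG), without the farthest tumors -0.082 (NOTCH1), -0.073 (JAG2) and 0.0063 (LFNG), with fibroblasts regressed out 0.049 (NOTCH3) and 0.047 (DLL1), and with the component 0.18 (NOTCH3) and 0.34 (DLL1). With the endothelial score NOTCH2 went to -0.077 with the component. With the mural score JAG1 went to -0.046 and LFNG to -0.028 without the farthest tumors, and NOTCH2 to -0.033 with fibroblasts and -0.24 with the component. With the difference of scores, LFNG went to -0.0037 in the DESeq-normalized table and -0.099 with the component, NOTCH1 to 0.0069 and JAG2 to 0.010 with Spearman's rho, NOTCH1 to 0.095 and JAG2 to 0.025 without the farthest tumors, and DLL1 to 0.13 with the component.

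The epithelial list was loose among tumors, 4 normals limit every comparison with iUC, and isolated genes could not be called by permutation. Gene length and base composition were not tested. No paired analysis was possible because normals and tumors came from different dogs and shared no number.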

Other observations

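After CD8B was seen as the gene nearest to DLL1, other T cell genes were looked at with DLL1 over the 29 tumors, so these values were chosen after the fact. CD8A had r = 0.44 and rho = 0.50 (permutation p = 0.0181 and 0.00700), CD3E r = 0.49, CD3D 0.47, CD3G 0.39, CD2 0.37 and CD5 0.49, against 0.83 for CD8B. In limma with DLL1 as covariate the adjusted p was 0.571 or more for each of these 6 genes, and 0.000445 for CD8B. Whether CD8B and CD8A differ in their correlation with DLL1 was not tested.

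At the other end, the genes with the most negative r were, for NOTCH1, CCDC68 (-0.76), cox5b (-0.75) and COX7C (-0.74), the last pair being subunits of mitochondrial cytochrome c oxidase, for NOTCH2, TIMM8B (-0.74), TARS (-0.72) and BOP1 (-0.71), and for NOTCH3, CDKN2AIP (-0.79), MPHOSPH10 (-0.73) and MPC2 (-0.71). Those of NOTCH1 and NOTCH3 passed the permutation test (adjusted p of at most 0.0103), and those of NOTCH2 did not (adjusted p = 0.0964). JAG1 was lowest with NUDT16L1 (-0.73, adjusted p = 0.0301). These genes were outside the naming rule.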
